A study of Homo sapiens with 6 samples.

Results

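The human CLIC family has 6 genes, CLIC1 to CLIC6, and the expression of each was followed in 6 RNA sequencing libraries of a colorectal cancer cell line. The members were taken by gene symbol from 56638 symbols in the count files. The family was chosen by the measured counts of CLIC3, which was already known to be among the largest falls in these libraries, so its values are described without a test. Of the 6 genes, 5 passed the filter on low counts and 1 had no read in any library.

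Of the libraries, 3 were titled Control siRNA and 3 were titled lncRNA-AF339830 siRNA, a long noncoding RNA that the study renamed GLCC1. They are called control and GLCC1 siRNA libraries here. Every library came from cells at passage 16-19 in serum-containing RPMI-1640 medium, and the genotype labels give the same siRNA, numbered 1, for all libraries of a condition, with a nonspecific siRNA as the control. The study states for its experiments in general that biological replicates were collected independently, but no label says so of these libraries. If they were not separate cultures, p-values measure only the spread between these samples, which may be technical. The labels name the line SW480, whereas the methods of the study name DLD-1 for RNA sequencing, and the library names attach each condition to the other siRNA. Every direction below rests on the titles and would turn if the library names were right.

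The read pairs assigned to genes numbered 11948790 in the shallowest library and 19042516 in the deepest. No row carried the name GLCC1 or AF339830, so the targeted RNA could not be checked. FARP1, the annotated gene that contains its locus, was at 108.7, 110 and 112.9 CPM (counts scaled to a common library size) in the control libraries and at 63.24, 65.62 and 65.45 CPM in those titled GLCC1 siRNA. GLCC1 siRNA replicate 2 stood apart: its chi-square per degree of freedom against the others of its condition was 16.3 and 17.1, whereas the other pairs within a condition gave 1.84 to 3.84. It also held the largest share of reads on no gene, 14.24%, against 11.21% to 12.73% in the other libraries. Fold changes of CLIC1, CLIC3 and CLIC4 are given with and without it. Those of genes outside the family are given with all libraries only.

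Markers of colorectal epithelial cells were present in every library and none of the 11 was at 0, with a summed level of 5813 to 6350 CPM in controls and 2485 to 2899 CPM in GLCC1 siRNA libraries. Of these 11 markers, 1 was called higher and 7 lower at an edgeR adjusted p under 0.05. Of all genes tested, 14.9% were called higher and 16.7% lower, and of those that averaged 1 CPM or more, 20.3% and 24.8%. The 5 fibroblast markers summed to 16.08 to 19.95 and 10.74 to 13.26 CPM, with COL1A2 and DCN at 0. The 5 immune markers summed to 3.017 to 4.095 and 3.261 to 5.422 CPM with PTPRC at 0, and the 4 endothelial markers to 0.542 to 1.028 and 0.3181 to 1.398 CPM with PECAM1, CDH5 and KDR at 0. KRT8 was the largest part of the epithelial sum, at 3584 CPM in controls and 1177 CPM in GLCC1 siRNA libraries. CDH17, the marker called higher, was at 134.1 and 183.3 CPM. The part of the epithelial difference in the results below was not tested. The labels name 1 cell line for all libraries. Within it, bulk RNA cannot tell fewer cells expressing a marker from less of its RNA per cell.

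CLIC proteins share the fold of glutathione transferases and exist both as soluble proteins and in a form associated with membranes. They were named chloride intracellular channels, and several are better known for redox activity and for work at the boundary of membrane and actin cytoskeleton. In epithelia and in tumours they are studied for membrane traffic, integrin recycling, adhesion and the response to transforming growth factor beta (TGF-beta).

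The members lie on 5 chromosomes (hg19, GENCODE 44). CLIC1 is at chr6:31698358-31707540 on the minus strand and CLIC2 at chrX:154505500-154563966 on the minus strand. CLIC3 is the most compact, at chr9:139889060-139891020 on the minus strand, with a span of 1961 bases. CLIC4 is at chr1:25071873-25170812 on the plus strand, and CLIC5 at chr6:45848564-46048085 on the minus strand has the longest span, 199522 bases. CLIC6 is at chr21:36041293-36090525 on the plus strand. All canonical transcripts had 6 exons, and the coding sequences were 241, 247, 236, 253, 251 and 686 codons long from CLIC1 to CLIC6.

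Coding sequences were aligned in pairs to see how far the members are separable by sequence. Nucleotide identity was highest between CLIC4 and CLIC6 at 72.1% and lowest between CLIC2 and CLIC3 at 55.7%. CLIC3 was 61.5% identical to CLIC1, 57.3% to CLIC4, 64.2% to CLIC5 and 58.4% to CLIC6. No pair of members was near-identical. The one other row with a symbol beginning with CLIC and a count was CLIC1P1, a CLIC1 pseudogene, with 1 count in GLCC1 siRNA replicate 3.

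Promoters were read from RefSeq (GRCh38.p14, from 250 bases before the start to 50 bases from it on), because CLIC3 and CLIC4 differed most between the conditions and in opposite directions. The table held 7 promoters for 5 members, 3 of them for CLIC5. The E-box word CACGTG, which c-Myc can bind, was searched on both strands and was in 0 of the 7, against 7.26% of the 35116 promoters in the table. The GC box word GGGCGG, searched on both strands, was in 4 of the 7, against 45% of all promoters. Capitals below mark the GGGCGG words on either strand, 3 in the CLIC3 promoter (chr9:136996519-136996818, minus strand, 70.3% GC) and 2 in the CLIC4 promoter (chr1:24745197-24745496, plus strand, 74.7% GC).
CLIC3: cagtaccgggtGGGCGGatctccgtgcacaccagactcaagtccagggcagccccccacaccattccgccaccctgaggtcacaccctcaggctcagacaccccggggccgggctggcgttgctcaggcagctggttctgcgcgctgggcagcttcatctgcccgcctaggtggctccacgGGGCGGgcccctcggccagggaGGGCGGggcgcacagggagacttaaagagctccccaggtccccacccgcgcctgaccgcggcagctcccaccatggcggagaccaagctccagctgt
CLIC4: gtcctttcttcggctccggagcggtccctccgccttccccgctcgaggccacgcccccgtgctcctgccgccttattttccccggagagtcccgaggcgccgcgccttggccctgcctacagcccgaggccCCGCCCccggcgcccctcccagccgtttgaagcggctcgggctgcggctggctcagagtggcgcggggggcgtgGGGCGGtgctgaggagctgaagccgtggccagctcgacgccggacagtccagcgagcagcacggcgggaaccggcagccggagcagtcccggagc

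Both promoters were richer in G and C than the median promoter of the table, at 58.7%. The promoter of CLIC1 also held 2 GGGCGG words and that of CLIC2 none. Among the 3 CLIC5 promoters, 1 held 4 such words and the others none. These are matches of letters and were not tested as sites. The 7-base word ACCTTGA, which occurs in the GLCC1 RNA and pairs with the seed of a GLCC1 siRNA of the study, was in 0 of the 6 canonical 3′ untranslated regions, against 2024 of 18717 (10.8%) in all genes with such a region.

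The comparison of the conditions asked how expression differs between cells given GLCC1 siRNA and cells given control siRNA. Counts were compared with edgeR over 23074 genes, and a gene was called at a Benjamini-Hochberg adjusted p under 0.05. Of all genes tested, 14.9% were called higher in GLCC1 siRNA libraries and 16.7% lower. CLIC3, whose fall chose the family, is left out of the counts that follow. Of the other 4 members tested, 1 was called, CLIC4, which was higher. The libraries of the conditions did not overlap in 2 of these 4, CLIC1 and CLIC4, and in 46.3% of all genes. These shares are near the background and are no result about the family. The median log2 fold change was -0.04 over the 4 members and 0.03 over all genes.

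CLIC3 has been described as a late endosomal protein that returns active integrin to the cell surface, and as a secreted oxidoreductase. It was at 23.17, 27.6 and 23.6 CPM in the control libraries, from 338, 501 and 392 counts. In the libraries titled GLCC1 siRNA it was at 4.483, 3.58 and 4.643 CPM, from 86, 45 and 83 counts. Every GLCC1 siRNA library lay far below every control library, and both conditions were tight.

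The means were 24.79 ± 2.443 CPM in controls (SD, n = 3) and 4.235 ± 0.5731 CPM in GLCC1 siRNA libraries (SD, n = 3). The fitted level in controls was 5.787 times the other, a log2 fold change of -2.53 with a standard error of 0.14. This was the fall with rank 4 among the 10378 genes that averaged 10 CPM or more, and had rank 18 among the 14875 that averaged 1 CPM or more. Without GLCC1 siRNA replicate 2 the log2 fold change was -2.44. Exons of CLIC3 overlapped no exon of another annotated gene.

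CLIC4 is a cytosolic protein that moves to the nucleus under stress and potentiates TGF-beta signalling. It has also been described as a gene induced by p53 and tumour necrosis factor. The control libraries gave 155.1, 156.3 and 152.8 CPM, a spread of 1.162% of their mean. The GLCC1 siRNA libraries gave 193.8, 283.3 and 202.3 CPM. Each was above every control, with replicate 2 well above its companions.

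The CLIC4 mean rose from 154.7 ± 1.797 to 226.5 ± 49.38 CPM (SD, n = 3 each), with a fitted ratio of 1.462. The log2 fold change was 0.55 (SE 0.12, 95% interval 0.28 to 0.81) with an adjusted p of 0.0036 (edgeR, Benjamini-Hochberg). Without GLCC1 siRNA replicate 2 the mean was 198.1 CPM and the log2 fold change 0.36 (SE 0.05, edgeR adjusted p = 9e-08). CLIC4 was thus called with and without that library, and without it the fitted ratio was 1.284.

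CLIC1 is the member most often reported as a functional anion channel, which enters membranes on oxidation. It was at 313.3, 331.1 and 335.5 CPM in controls and at 296.1, 241.7 and 295.1 CPM in GLCC1 siRNA libraries. The conditions did not overlap, although replicates 1 and 3 of GLCC1 siRNA lay close to the lowest control. The means were 326.6 ± 11.72 and 277.6 ± 31.12 CPM (SD, n = 3 each).

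The log2 fold change of CLIC1 was -0.23 (SE 0.09, 95% interval -0.43 to -0.04), and its edgeR adjusted p of 0.066 missed the threshold. Without GLCC1 siRNA replicate 2 the difference was smaller, -0.14, and so was its SE, 0.05, with an edgeR adjusted p of 0.024. DDAH2 and MSH5, next to CLIC1, share 37 and 35 of its 1942 exon bases. DDAH2 had a log2 fold change of -0.29 (edgeR adjusted p = 0.053) and MSH5 one of -0.15 (edgeR adjusted p = 0.47).

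CLIC5 links membranes to the cytoskeleton through ezrin and is needed in hair cell stereocilia and in podocytes. The controls gave 16.73, 20.66 and 20.29 CPM and the GLCC1 siRNA libraries 22.63, 22.12 and 19.97 CPM. The conditions overlapped, since GLCC1 siRNA replicate 3 lay below 2 of the controls. The means were 19.23 ± 2.173 and 21.57 ± 1.41 CPM (SD, n = 3 each). The log2 fold change was 0.16 (SE 0.11, 95% interval -0.09 to 0.41), with an edgeR adjusted p of 0.31.

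CLIC2, which modulates ryanodine receptor channels, was close to the limit of detection. The control libraries held 9, 13 and 6 counts and the GLCC1 siRNA libraries 13, 2 and 7, or 28 and 22 in all. The log2 fold change of -0.38 had a 95% interval of -1.49 to 0.73 (edgeR adjusted p = 0.61), and a difference in either direction was not detectable at this depth. CLIC6, the longest member, which binds dopamine receptors, had 0 counts among 99151572 in the 6 libraries. A count of 0 allows up to 3 counts, which is 0.1564 to 0.2387 CPM in a single library and 0.03031 CPM over all libraries, for counting error only.

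**Figure D1:**
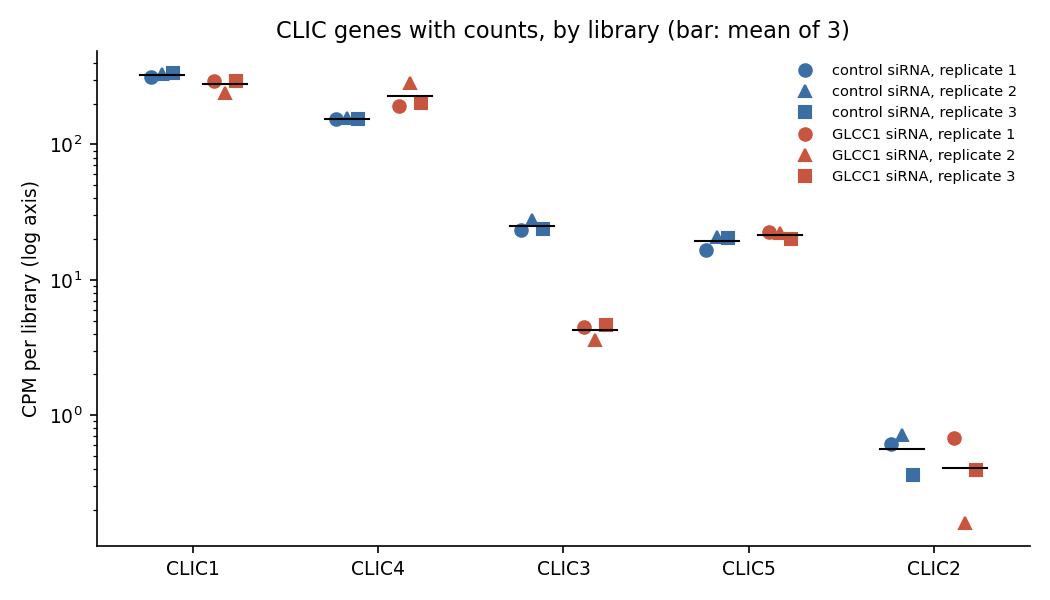
Level of each CLIC gene in CPM on a log axis, by condition. Each point is a library, marker shapes are replicate numbers, and bars are means of 3 libraries. CLIC3 lies at 23.17 to 27.6 CPM in control libraries and 3.58 to 4.643 CPM in GLCC1 siRNA libraries, and GLCC1 siRNA replicate 2 is the lowest for CLIC1 and the highest for CLIC4.

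**Figure D2:**
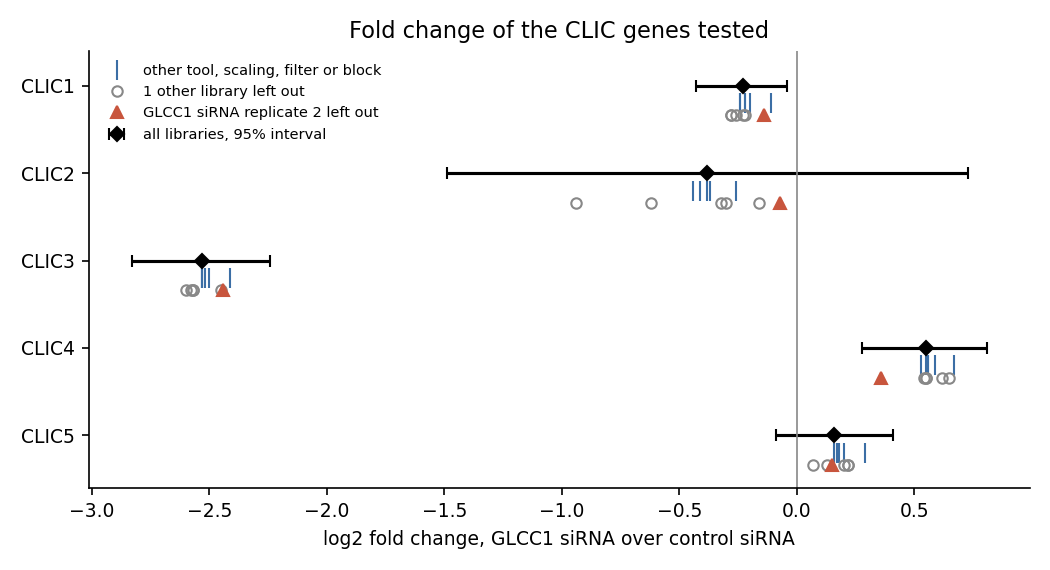
Log2 fold change, GLCC1 siRNA minus control, of the 5 members tested, with 95% intervals, and beside each the values under other processing choices and with single libraries left out. CLIC3 stands at -2.53 with values of -2.60 to -2.44 when a library is left out, CLIC4 lies above 0 at every setting drawn (0.36 to 0.67), and the interval of CLIC2 is the widest.

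Levels of different genes were compared per kilobase of exon. In controls CLIC1 was highest at 168.2 ± 6.036 CPM per kilobase (SD, n = 3), above 98.7% of genes that averaged 1 CPM or more and had a known length. CLIC4 followed at 34.63 ± 0.4023, CLIC3 at 25.58 ± 2.521 and CLIC5 at 1.843 ± 0.2083 CPM per kilobase, and CLIC2 was last at 0.1989. No neighbours in this order overlapped in control libraries, CLIC4 having been at 34.2 to 34.99 and CLIC3 at 23.91 to 28.48 CPM per kilobase.

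In GLCC1 siRNA libraries the order was kept. CLIC1 was at 143 ± 16.03, CLIC4 at 50.7 ± 11.06, CLIC3 at 4.371 ± 0.5915 and CLIC5 at 2.068 ± 0.1352 CPM per kilobase (SD, n = 3 each). CLIC3, at 3.694 to 4.791 CPM per kilobase, remained above CLIC5, at 1.914 to 2.169, in every library. The level of CLIC3 passed from above 86.8% of genes to above 39.5%, and that of CLIC4 from above 91.1% to above 95.1%. The order was also the same with the length of the canonical transcript. The lengths were known for 83.3% of the genes compared.

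The make-up of the family was then expressed as the share of each member in the summed CPM per kilobase. CLIC3 made up 10.78%, 12.06% and 10.44% of the family in the control libraries and 2.28%, 1.907% and 2.348% in the GLCC1 siRNA libraries. CLIC4 made up 15.65%, 14.81% and 14.65% in controls and 21.39%, 32.73% and 22.19% in GLCC1 siRNA libraries. CLIC1 held most of the family in every library, with 72.18% to 74.02% in controls and 64.24% to 75.15% in GLCC1 siRNA libraries. The share of CLIC4 was thus higher, and that of CLIC3 lower, in each GLCC1 siRNA library than in any control. The summed level itself was 221.8, 236.2 and 233.4 CPM per kilobase in controls and 202.9, 193.7 and 204.1 in GLCC1 siRNA libraries.

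**Figure D3:**
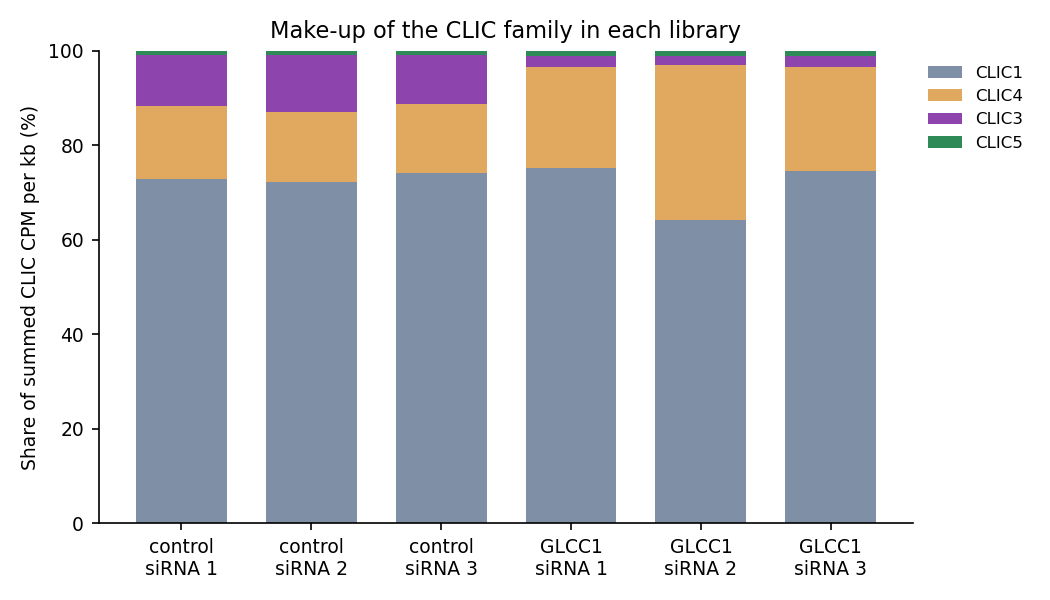
Share of each member in the summed CPM per kilobase of exon of the CLIC genes, in percent, as a stacked bar for each library. CLIC3 takes 10.44% to 12.06% in controls and 1.907% to 2.348% in GLCC1 siRNA libraries, and CLIC4 reaches 32.73% in GLCC1 siRNA replicate 2.

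Ratios of counts within a library are free of the scaling between libraries. Ratios to CLIC1 also carry its own difference, a log2 fold change of -0.23 with conditions that did not overlap. On scaled counts the log2 fold change was 0.55 for CLIC4 and only 0.16 for CLIC5, whose conditions overlapped. For each CLIC1 count there were 0.4949, 0.4721 and 0.4553 CLIC4 counts in controls and 0.6546, 1.172 and 0.6857 in GLCC1 siRNA libraries. The log2 ratio differed by 0.77, with p = 0.1 in a two-sided exact permutation test, the smallest value that 3 against 3 libraries can give. Without GLCC1 siRNA replicate 2 this difference was 0.50, a comparison added after the data were seen. CLIC5 counts per CLIC1 count were 0.05338, 0.06241 and 0.06048 in controls and 0.07641, 0.09151 and 0.06768 in GLCC1 siRNA libraries, a log2 difference of 0.41 (exact permutation p = 0.1), or 0.29 without GLCC1 siRNA replicate 2. For CLIC3, given as a description, there were 0.07394, 0.08337 and 0.07035 counts per CLIC1 count in controls and 0.01514, 0.01481 and 0.01573 in GLCC1 siRNA libraries. GLCC1 siRNA replicate 2, which stood apart for CLIC4, did not do so for this ratio. However, CLIC3 and CLIC1 were both lowest in that library, at 3.58 and 241.7 CPM. Its low CLIC1 also raises its CLIC4 ratio of 1.172.

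Genes known to act with the CLIC proteins were described by lists. These were counted against the same background, 14.9% of all genes called higher and 16.7% lower. Among the 14875 genes that averaged 1 CPM or more, 20.3% were called higher and 24.8% lower. Most tested members of each list averaged that much, except among the receptors. Of 14 integrin recycling partners of CLIC3, all tested, 0 were called higher and 4 lower, with a median log2 fold change of -0.13. ITGA5, the alpha subunit of the fibronectin receptor, fell by 0.80 on the log2 scale (SE 0.10, edgeR adjusted p = 5.6e-05), from 231.8 ± 24 to 133.4 ± 15.68 CPM. TGM2, the transglutaminase that secreted CLIC3 is reported to act on, went from 14.3 ± 0.6235 to 7.616 ± 0.9071 CPM (log2 fold change -0.92, edgeR adjusted p = 0.00012). RAB11A, a recycling endosome GTPase, and LAMP1, a lysosomal membrane protein, fell by 0.42 and 0.35 (edgeR adjusted p = 0.0011 and 0.0035). Without GLCC1 siRNA replicate 2, 7 of the 14 were called, but the share of all genes called then also went from 31.6% to 44.1%.

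Of 15 genes of TGF-beta signalling, chosen because CLIC4 acts in that pathway, 3 were called higher and 5 lower, with a median of -0.24. The receptor subunits moved apart. TGFBR1 rose from 53.42 ± 2.358 to 89.83 ± 15.54 CPM (log2 fold change 0.75, edgeR adjusted p = 0.00023), whereas TGFBR2 fell from 362.4 ± 8.061 to 225.8 ± 4.601 CPM (-0.68, edgeR adjusted p = 1.2e-05). In GLCC1 siRNA replicates 1 to 3 TGFBR1 was at 79.46, 107.7 and 82.34 CPM, highest in replicate 2. SMAD3, the signal transducer, fell by 0.65 on the log2 scale (edgeR adjusted p = 8.3e-05). HIVEP2, also named Schnurri-2, a partner of CLIC4, rose by 1.24 (edgeR adjusted p = 1.7e-05), from 5.055 to 11.99 CPM, and SKI, a repressor of SMAD proteins, rose by 0.52 (edgeR adjusted p = 0.00048).

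Of 14 genes of ezrin, radixin, moesin and the partners of CLIC4 and CLIC5 at the membrane and cytoskeleton, 13 were tested, 2 were called higher and 3 lower, with a median of -0.15. EZR, which encodes ezrin, fell from 496.9 ± 17.65 to 373.2 ± 21.2 CPM (log2 fold change -0.41, edgeR adjusted p = 0.0011), and RDX, radixin, from 51.44 ± 1.687 to 27.04 ± 6.067 CPM (-0.94, edgeR adjusted p = 0.00011). SLC9A3R2, a scaffold that binds ezrin, fell by 0.72 (edgeR adjusted p = 0.0033). In GLCC1 siRNA replicates 1 to 3 it was at 26.85, 16.62 and 29.26 CPM, lowest in replicate 2. RDX was highest in that library, at 23.41, 34.04 and 23.66 CPM in the same order. RAC1, a GTPase of the actin cytoskeleton, rose by 0.27 and TRIOBP, an actin bundling protein, by 0.45 (edgeR adjusted p = 0.021 and 0.0089). Without GLCC1 siRNA replicate 2, 9 of these genes were called, at a setting that called 44.1% of all genes.

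Of 24 genes with the glutathione transferase fold or of related thiol enzymes, 17 were tested, 3 were called higher and 8 lower, with a median of -0.15. GSTM4 showed the largest fall, from 126.7 ± 3.083 to 51.73 ± 4.962 CPM (log2 fold change -1.29, edgeR adjusted p = 3.7e-07). GSTM2 fell by 0.87 and GLRX, a glutaredoxin, by 0.68 (edgeR adjusted p = 8e-05 and 0.00028). The 3 called higher were GLRX2, another glutaredoxin, GSTZ1 and GSTA4. They rose by 0.52, 0.38 and 0.37 (edgeR adjusted p = 0.014, 0.0068 and 0.047). GSTT2 and GSTT2B fell by 0.80 and 0.75 (edgeR adjusted p = 0.013 and 0.0065), but these are near-identical copies whose reads may be split between them, and the GSTM genes are also close in sequence.

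Of 39 other chloride channels and their regulators, 32 were tested, 4 were called higher and 9 lower, with a median of 0.04. CLNS1A, a regulator of swelling-activated currents, fell from 114.5 ± 3.7 to 61.81 ± 0.559 CPM (log2 fold change -0.89, edgeR adjusted p = 2.9e-06), and TTYH2, of the tweety family, fell by 0.83 (edgeR adjusted p = 7.8e-05). The endosomal exchangers CLCN4 and CLCN6 fell by 0.59 and 0.55 (edgeR adjusted p = 0.0027 and 0.00092), whereas CLCN3 rose from 141.4 ± 9.482 to 199.4 ± 23.37 CPM (log2 fold change 0.49, edgeR adjusted p = 0.0014). In GLCC1 siRNA replicates 1 to 3 CLCN3 was at 180.4, 225.5 and 192.1 CPM, highest in replicate 2. CFTR was among those called higher with 0 counts in every control, and no fold is given. It passed the filter only through the GLCC1 siRNA libraries, at 0.1043, 0.1591 and 0.2237 CPM. Its call rests on few reads and was not independent of that filter. Without control replicate 1, and likewise without control replicate 2, 8 were called, while the share of all genes called was 24.5% and 23.2%, against 31.6% with every library.

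Of 6 receptors bound by CLIC2 or CLIC6, 4 were tested and 1 was called, RYR1, the ryanodine receptor of skeletal muscle, named after its values were seen. It was at 1.028, 1.267 and 1.024 CPM in controls and 0.2607, 0.1591 and 0.2797 CPM in GLCC1 siRNA libraries (log2 fold change -2.17, edgeR adjusted p = 0.001). At these levels it rests on few reads, and with a minimum of 10 counts in every library it was not tested.

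**Figure D4:**
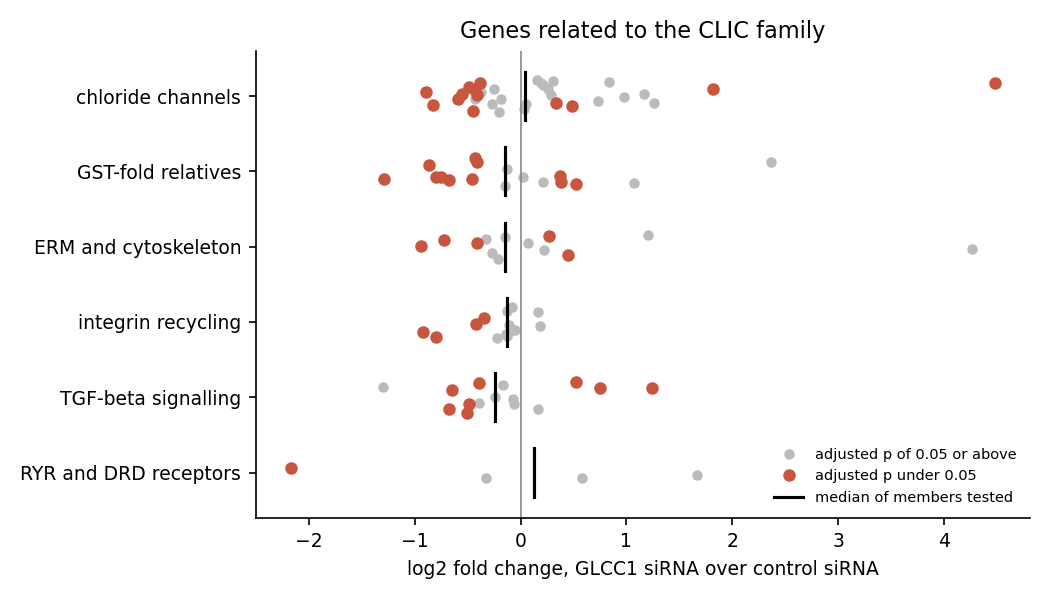
Log2 fold change, GLCC1 siRNA minus control, of the tested members of each related list, with 1 point for each gene. Red points had an edgeR adjusted p under 0.05, and lines mark list medians, from -0.24 for TGF-beta signalling to 0.12 for the receptors. The point farthest right is CFTR, whose control libraries held 0 counts and whose position depends on the prior count. The same holds for PTPRQ of the ezrin list, drawn at 4.27. Its reads came from GLCC1 siRNA replicate 3 alone, at 0.3916 CPM, and it was not called.

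The genes whose pattern over the 6 libraries was closest to that of CLIC3 were found by Euclidean distance of centred log2(CPM + 1) values among 14875 genes. They were CHRNA4, an acetylcholine receptor subunit (distance 0.173), ACTG1, cytoplasmic gamma actin (0.213), and PPT1, a lysosomal thioesterase (0.257). Mean levels in controls and GLCC1 siRNA libraries were 7.789 and 0.7768 CPM for CHRNA4. They were 2288 and 517.4 CPM for ACTG1, and 159.5 and 30.55 CPM for PPT1. The log2 fold changes were -3.27, -2.14 and -2.38 in that order, against -2.53 for CLIC3. Adding 1 to the CPM narrows differences at low levels, so the distance understates how far CHRNA4 differs from CLIC3. The genes closest to CLIC1, the member with the highest level, were NDUFB11 (0.0415), NUP188 (0.0547) and DCTN3 (0.0566), with log2 fold changes of -0.27, -0.25 and -0.23.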

How the data were processed

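The 6 libraries were prepared from total RNA with a TruSeq RNA kit and sequenced as paired ends. Per the labels and the methods of the study, reads were mapped to hg19 with TopHat2 2.0.11 and counted per gene symbol with HTSeq in union mode. The authors deposited raw counts, 1 file for each library, without normalization. The strand setting is not given in the sources used here, so reads of antisense genes may be included. Tallies of reads given to no gene (11.21% to 14.24%) or to several genes (8.191% to 8.894%) were removed.

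A gene was kept where the libraries of at least 1 condition held 5 counts or more together, which left 23074. Counts were scaled with TMM factors of 0.9503 to 1.052 and compared with the robust quasi-likelihood test of edgeR 4.0.16 (R 4.3.3), with Benjamini-Hochberg adjustment. SE is the absolute log2 fold change over the square root of F. CPM used TMM-scaled library sizes and lengths were exon unions of GENCODE 44 on hg19, matched for 33514 symbols (59.2%). At 24.79 CPM in controls the SE of CLIC3 was 0.14, and at 326.6 CPM that of CLIC1 was 0.09. Scripts were tested on simulated data.

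The members and lists were chosen with earlier results of these data known. Named were all CLIC genes and other CLIC rows with a count, up to 5 members of each related list with the largest change among those called that averaged 1 CPM or more, the 3 genes closest to CLIC3 and to the highest member, tested neighbours, and FARP1. GLRX2, GSTZ1, GSTA4 and PTPRQ were named outside this rule, after their values were seen. Alternatives were DESeq2 1.42.0, its size factors, library totals, other count filters, a replicate block and leaving out each library. Python 3.11.15 was used for the rest.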

Additional observations from a re-analysis of the deposited data

How the results depend on the processing

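Of 157 values recomputed under other choices, 146 kept their direction and their side of the threshold (or stayed within 1.5 times for counts). They include the CLIC3 values, whose fall chose the family, so the tally is no support for that fall. Count ratios to CLIC1 were compared by direction only. Another 2 values passed the threshold, 9 counts moved and none reversed. CLIC1 passed it with a filter of 1 count in any library (-0.24, edgeR adjusted p = 0.045) and without GLCC1 siRNA replicate 2 (-0.14, edgeR adjusted p = 0.024). With 1 library left out, the log2 fold change ranged from -0.28 to -0.14 for CLIC1, -0.94 to -0.07 for CLIC2, -2.60 to -2.44 for CLIC3, 0.36 to 0.65 for CLIC4 and 0.07 to 0.22 for CLIC5, genes called numbered 2381 to 4844 higher and 2833 to 5076 lower, and members called numbered 8 to 18 of the chloride channels (13 with all libraries), 8 to 12 of the glutathione transferase relatives, 4 to 9 of the ezrin list (5), 4 to 7 of the integrin list (4), 7 to 12 of TGF-beta signalling and 1 to 2 of the receptors. The receptor count of 1 became 2 with library totals or a filter of 1 count, and 0 with 10 counts in every library, which also removed CLIC2. Library totals alone moved the median of all genes from 0.03 to 0.15 and the share of called genes that were higher from 47% to 62.9%. CLIC1 was then at -0.11 (edgeR adjusted p = 0.36), CLIC3 at -2.41, CLIC4 at 0.67 (0.00088) and CLIC5 at 0.29 (0.07), a shift shared with all genes. Same-numbered libraries did not deviate together (correlations of -0.179, -0.323 and -0.0127 over 14875 genes), and differently numbered ones gave -0.273 to 0.286. Deviations from the mean of 3 libraries are tied to each other, so these values cannot decide whether the numbers pair the samples. A replicate block gave 0.53 for CLIC4 (edgeR adjusted p = 0.0011), -0.24 for CLIC1 (0.098), 0.17 for CLIC5 (0.40) and -2.53 for CLIC3, with 3009 genes higher and 3513 lower, and changed no call of a member. DESeq2 gave 0.56 for CLIC4 (adjusted p = 0.0002) and 3139 genes higher and 3584 lower. Depth limits CLIC2 and CLIC6, for which small differences were not detectable.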

Other observations

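The nearest genes were sought among those whose annotation symbol is in the count files. By this search, CLIC4, CLIC5 and CLIC6 each have a gene of the RUNX family of transcription factors as the nearest protein-coding gene on 1 side. A gene of the RCAN family of calcineurin regulators lies on the other side, directly beside CLIC6 and beyond SRRM1 or ENPP4 for CLIC4 and CLIC5. The values of these 6 genes are given here, and RCAN2 and RCAN3 were named after the positions of the others were seen. Near CLIC5, RUNX2 (216478 bases away) was at 19.95, 23.2 and 23.49 CPM in controls and 33.26, 37.54 and 32.72 CPM in GLCC1 siRNA libraries, a rise of 0.63 on the log2 scale (SE 0.11, edgeR adjusted p = 0.00048). Near CLIC6, which had no read, RUNX1 (69573 bases away) fell from 35.01 ± 2.003 to 23.96 ± 2.292 CPM (-0.55, edgeR adjusted p = 0.0011), and RCAN1 (53881 bases away) rose from 18.69 ± 1.491 to 27.77 ± 1.589 CPM (0.57, edgeR adjusted p = 0.00097). Near CLIC4, RCAN3 (204343 bases away) was at 17.47 and 14.18 CPM (-0.31, edgeR adjusted p = 0.076), and RUNX3 (55190 bases away) and RCAN2 (140388 bases from CLIC5) were under 0.3 CPM on average in both conditions.

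For CLIC3, the nearest genes found by symbol and tested did not pass the threshold. A closer gene that the count files list under another symbol would be missed. Whether these are the genes directly beside CLIC3 is thus not known, and a difference in a closer gene was not tested. ABCA2 (10666 bases away) was at 262.2 and 201 CPM (log2 fold change -0.38, SE 0.15, edgeR adjusted p = 0.067), and LCNL1 (8198 bases away) at 0.2892 and 0.1242 CPM (-1.02, edgeR adjusted p = 0.38). SRRM1, 72101 bases from CLIC4, had a log2 fold change of -0.24 (edgeR adjusted p = 0.047), opposite in sign to that of CLIC4.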
